A study of Citrus trifoliata with 6 samples.

Results

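Auxin genes of trifoliate orange roots (Poncirus trifoliata, syn. Citrus trifoliata) were examined for transcript levels in roots colonized by the arbuscular mycorrhizal fungus Glomus versiforme (Gv) and in control roots (Ck). The genes were taken by the description of their best protein hit: a gene was included when that text named auxin, indole-3-acetic acid, IAA-amino acid conjugates, GH3 or SAUR. Of 22589 genes listed in at least 1 library, 99 met this rule, and 3 others that matched only within an accession were left out. RNA-seq was made from lateral roots 3 months after inoculation, with 3 Gv and 3 Ck libraries, each from at least 9 plants of different pots. Both groups grew in sterile quartz sand on diluted Hoagland solution with 20 µM phosphorus, and the Gv pots received about 3000 spores while the Ck pots received no inoculum. The libraries held 4.34 to 4.71 M reads on genes.

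Auxin is the growth regulator that positions lateral roots and sets cell elongation. It is carried into cells by AUX1/LAX permeases and out of them by PIN carriers, it is perceived by TIR1-type F-box receptors that remove Aux/IAA repressors, and it thereby frees the auxin response factors (ARFs) to act on GH3, SAUR and Aux/IAA target genes. GH3 enzymes join indole-3-acetic acid (IAA) to amino acids, and IAA-amino acid hydrolases release it again. In mycorrhizal roots of model plants, auxin reporters are active in cells that hold arbuscules, the branched fungal structures through which phosphate is delivered.

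By hit text the 99 genes comprised 8 GH3 genes, 6 conjugate hydrolases, 17 transport genes, 20 genes of the 5NG4 type, 6 Aux/IAA genes, 11 response factors, 18 SAUR-type genes, 1 auxin-repressed/dormancy-associated gene and 12 others. Together they took 0.539 to 0.640% of the reads of a library. Mean levels over the 6 libraries reached at least 1 RPKM (reads per kilobase of listed gene length and per 1000000 reads) in 74 genes, at least 10 RPKM in 38 and at least 100 RPKM in 5. After the filter on low counts 68 of the 99 could be tested, and the other 31 had 1 to 56 reads in all 6 libraries together. The tested genes passed on their reads in both groups or in 1 group, so they are not all the auxin genes of the root.

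The auxin genes as a group showed no common shift with colonization. Of the 68 tested, 34 had a fitted change above 0 and 34 below, with a median log2 fold change of -0.01, the same as over all 16281 genes tested (-0.01). The changes ran from -1.08 to 5.61, and 12 of the 68 (17.6%) exceeded 0.5 in size, against 11.8% of all genes. No auxin gene was called by edgeR at an adjusted p under 0.05 and a log2 change of at least 1. The same fit called 0.0% of all genes, so this count does not set the auxin genes apart. At an unadjusted p under 0.05 it listed 5 auxin genes, 3 higher and 2 lower in Gv, against 4.57% of all genes. A fit with the replicate number as a block called 0.995% of all genes (0.958% higher and 0.0369% lower in Gv) and no auxin gene. DESeq2 called 1.19% of all genes (1.15% higher and 0.0369% lower) and 1 auxin gene, Cs5g32400, which was higher. Every Gv library lay above every Ck library for 4 auxin genes (background 5.17%) and below for 3 (background 3.99%). The 95% interval lay within a 2-fold change either way for 37 of 68 genes (54.4%, against 68.1% of all genes), or for 51 with the block, so a change of that size could still be present in the rest.

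**Figure D1:**
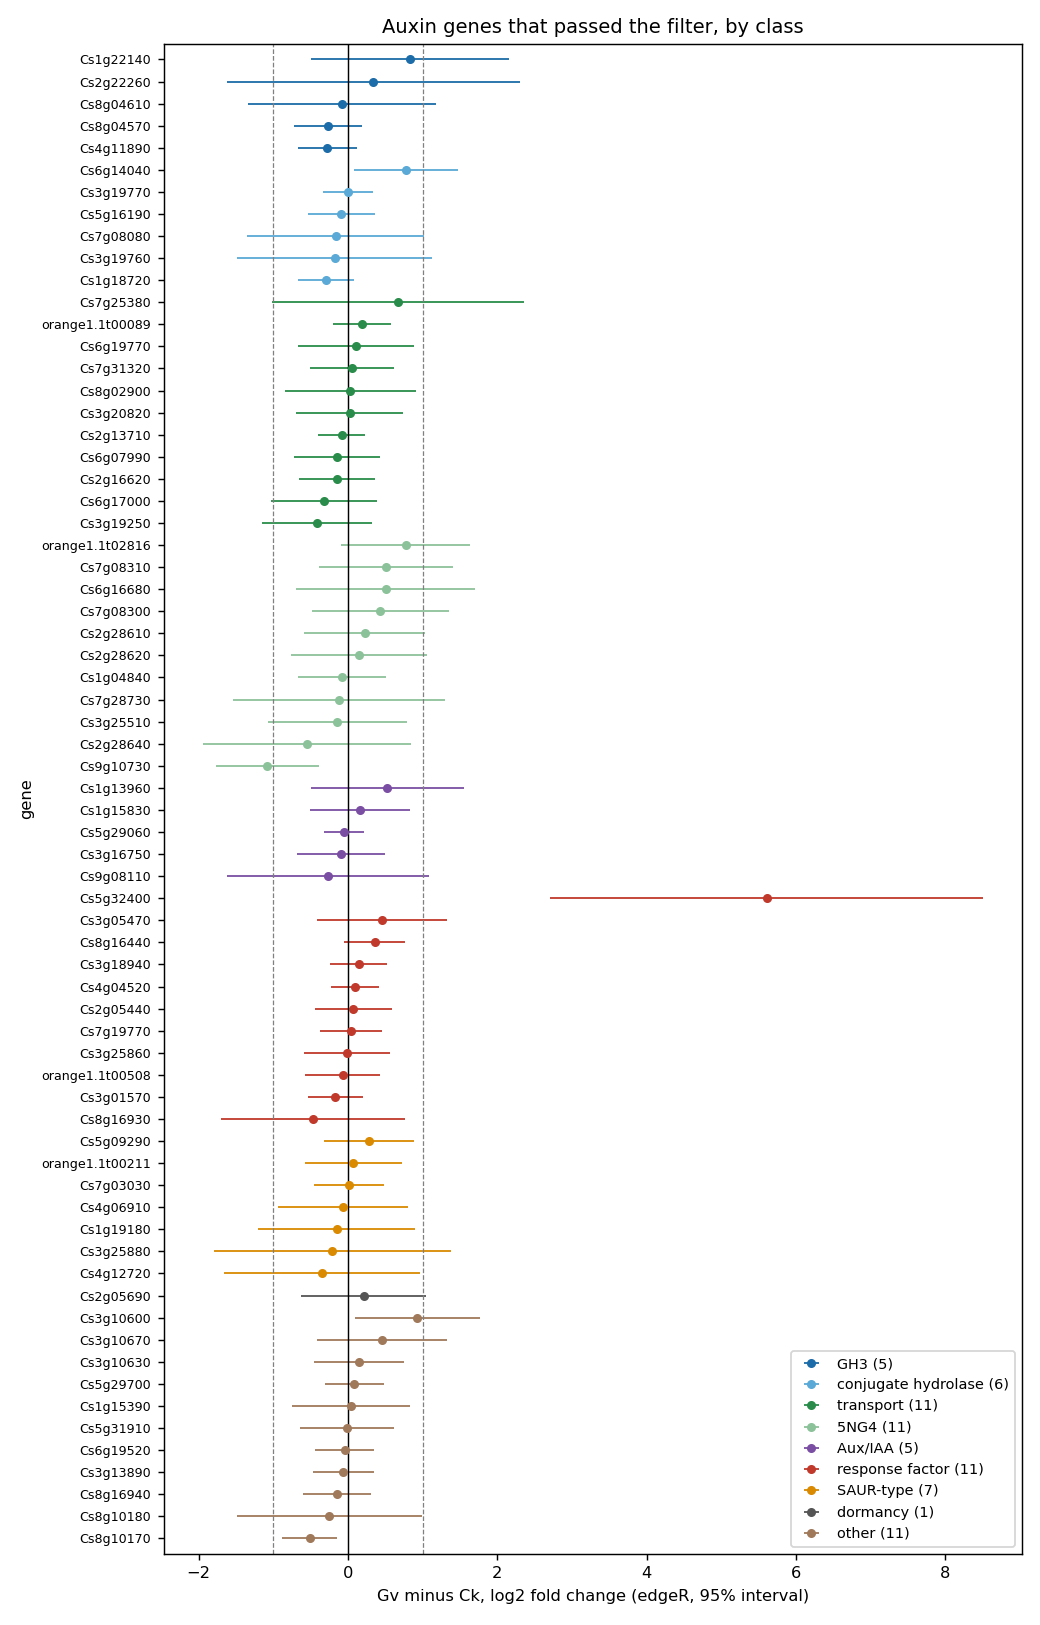
Log2 fold change (Gv minus Ck, x axis) of the 68 tested auxin genes by class, fitted by edgeR without block. Points are estimates, bars are 95% intervals and dashed lines mark a 2-fold change. Cs5g32400 at 5.61 stands alone, and the other 67 lie between -1.08 and 0.93.

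Transcripts of symbiotic phosphate transporter genes were plain in the Gv libraries and uneven among them. The study measured colonization itself by staining, and no staining value per library was used here. Cs7g29450, an ortholog of the symbiotic phosphate transporter PT4 of Medicago truncatula, had 839, 983 and 5257 reads in Gv1, Gv2 and Gv3 against 2, 1 and 0 reads in Ck1, Ck2 and Ck3. A second PT4 ortholog, Cs9g18560, had 347, 377 and 2220 reads in Gv and none in Ck. Both were therefore about 6 times as high in Gv3 as in Gv1 and Gv2 (ratios 5.92 and 6.28), with no such step in the library total. Both belong to a list of 4 colonization genes, of which edgeR without the block called 0 (lowest adjusted p 0.287). With the block all 4 were called. A high adjusted p in the fit without the block therefore does not show that a gene was unchanged. Of 7 genes picked by root terms in their hit text, the 4 tested, among them the SHORT-ROOT-like Cs1g21500, were read in every library. Of these, 3 had a fitted change above 0 and 1 below. The other 3 were described as Casparian strip proteins and were too low for the test. They had 15, 5 and 21 reads in Gv against 23, 15 and 32 in Ck. The 9 leaf-type photosynthesis genes summed to 182 to 232 CPM (TMM-scaled counts per 1000000 reads) in Gv and 194 to 220 in Ck, with no separation of the groups in the 6 that were tested. Of the 6, 3 had a fitted change above 0 and 3 below. The Rubisco gene Cs4g03580 held most of the sum, with 608 to 909 of 783 to 1018 reads in a library. Low genes were less even: Cs2g19680 had 22, 65 and 10 reads in Gv against 101, 32 and 16 in Ck. In whole roots, more cells with a transcript and more transcript per cell cannot be told apart.

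Among the ARFs, 1 gene stood out, and the other 10 had fitted log2 changes between -0.47 and 0.46. Cs5g32400, whose best hit is the ARF 23-like protein of grape, had 37, 34 and 231 reads in the 3 Gv libraries against 2, 4 and 0 reads in the 3 Ck libraries. Every Gv library was above every Ck library, and Gv3 was 6.64 times as high as the mean of Gv1 and Gv2. Its level was 4.63 ± 5.26 RPKM in Gv and 0.0867 ± 0.0855 RPKM in Ck (mean ± SD, n = 3). The pooled ratio was 51.5, with a 95% counting interval of 23.4 to 141 that covers counting error only. The edgeR log2 fold change was 5.61 (SE 1.21, 95% interval 2.71 to 8.51, adjusted p = 0.400), and with the replicate block it was 5.41 (adjusted p = 0.0742).

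Whether Cs5g32400 was called changed with the libraries numbered 3, while its direction held in every fit run. DESeq2 gave 5.69 with an adjusted p of 2.0e-05. Without both libraries numbered 3, edgeR gave 3.52 with an adjusted p of 0.0226, and with the block it was called without Gv3 (3.52, adjusted p = 0.0497) and without Ck3 (3.52, adjusted p = 0.0261). In a block fit, a library left alone in its number adds nothing to the fitted change. These fits therefore all rest on numbers 1 and 2 and are not separate results. The edgeR fit without both libraries numbered 3 called 166 of all genes higher and 39 lower in Gv, against 0 each with all 6 libraries. Block fits without a library of number 1 or 2 did not call Cs5g32400 (adjusted p from 0.0719 to 0.168). Leaving out Gv3 alone without the block gave 4.09 with an adjusted p of 0.162, and over the 6 such fits with 1 library left out the adjusted p ran from 0.162 to 1.00. Reads on Cs5g32400 per 1000 reads on the PT4 ortholog Cs7g29450 were 44.1, 34.6 and 43.9 in Gv1, Gv2 and Gv3. The gene and the colonization marker thus stepped up together in Gv3, and the part of the marker's level in the result was not tested.

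**Figure D2:**
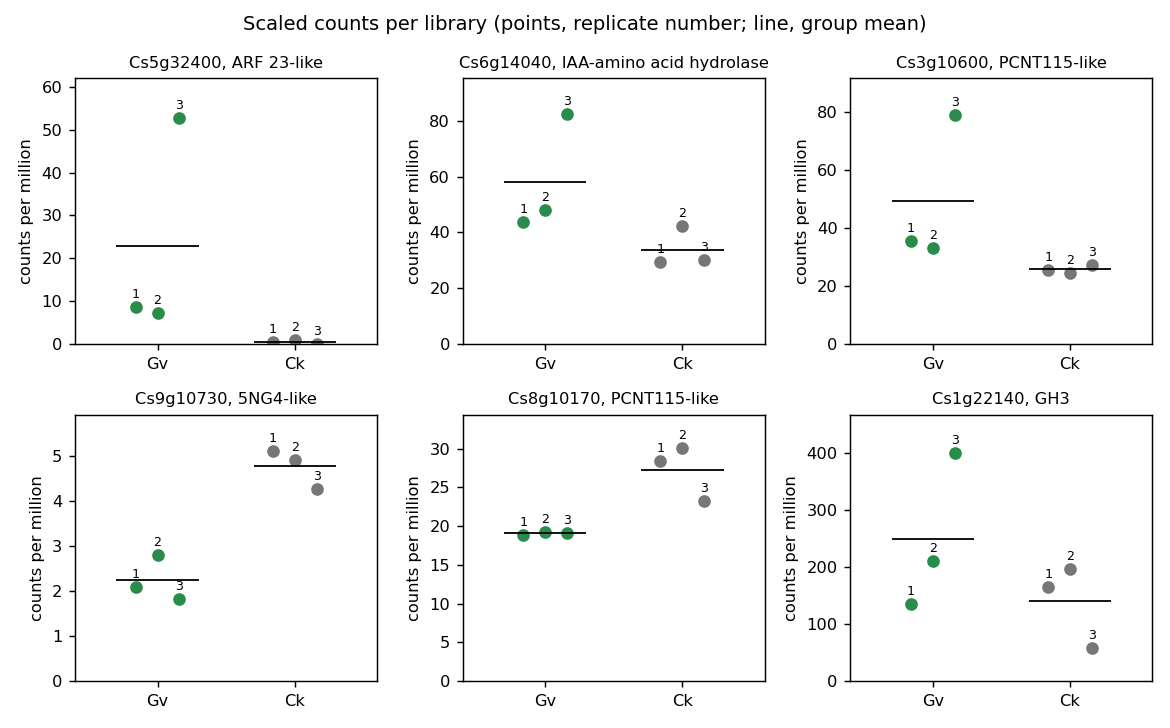
TMM-scaled CPM (y axis, from 0) of 6 auxin genes in each Gv and Ck library. Points carry the replicate number and lines are group means. Cs5g32400, Cs6g14040 and Cs3g10600 are higher in all 3 Gv libraries and highest in Gv3, Cs9g10730 and Cs8g10170 are lower in all 3, and Cs1g22140 overlaps.

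The other ARFs covered a wide range of levels. Cs7g19770, described as an auxin-response factor of Citrus sinensis, was the highest of the 11 ARFs known by hit text at 52.4 RPKM, with 1423, 1368 and 1544 reads in Gv against 1286, 1297 and 1754 in Ck, and a log2 change of 0.04 (SE 0.18). The ARF5-like Cs4g04520 (ARF5 is MONOPTEROS, which sets up the embryonic root and vascular tissue in Arabidopsis) had a fitted log2 change of 0.09, with a 95% interval of -0.23 to 0.41. The ARF3-like Cs2g05440 stood at 0.07 and the ARF4-like Cs8g16930 at -0.47 (SE 0.51). ARF3 and ARF4 act in organ polarity in Arabidopsis. Cs8g16930 had 313, 307 and 576 reads in Gv against 362, 307 and 1050 in Ck, so library 3 was the highest in both groups. The ARF18-like Cs8g16440 was higher in Gv within each replicate number, by log2 ratios of 0.41, 0.35 and 0.32, with overlapping groups and an edgeR adjusted p of 1.00 (0.319 with the block). At the low end Cs3g05470 was at 0.618 RPKM with 22, 15 and 14 reads in Gv against 16, 13 and 9 in Ck. The median log2 change of the 11 ARFs was 0.07. An ARF known by its KEGG entry alone, Cs5g01980, was higher still at 77.9 RPKM, with a log2 change of -0.12 (SE 0.18).

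The SAUR-type genes (small auxin up RNAs, short-lived transcripts that rise quickly with auxin in other plants) showed no called change among the 7 that could be tested. Cs7g03030, the highest at 175 RPKM, had 1211, 1331 and 840 reads in Gv against 1187, 1167 and 1077 in Ck, and its log2 change was 0.01 (SE 0.20). Cs1g19180 was next at 102 RPKM, with a log2 change of -0.15 (SE 0.44). The 7 ran from -0.35 for the ARG7-type Cs4g12720 to 0.29 for Cs5g09290, all with adjusted p of 1.00. The other 11 SAUR-type genes were too low for the test, with 2 to 38 reads each.

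Some SAUR-type genes too low for the test were read almost only in colonized roots. They were chosen after their values were seen. Cs8g02090, a hit to auxin-induced protein 6B-like of grape, had 1, 2 and 26 reads in Gv1, Gv2 and Gv3 and no read in Ck. With the 3 reads over the group that a count of 0 allows, its pooled reads were at least 9.89-fold higher in Gv. This bound covers counting error in Ck only and not the spread among libraries. Gv3 held 26 of its 29 Gv reads. Its identifier ends a run of 5 consecutive ones, from Cs8g02050 to Cs8g02090, all assigned to the SAUR family by their KEGG entry. Cs8g02050, an ARG7-like gene of the set, had 2 reads, both in Gv3. The 3 between them carry no auxin term in their hit text. Cs8g02070 had 12, 9 and 78 reads in Gv against 0, 0 and 1 in Ck, Cs8g02080 had 3, 5 and 53 in Gv and none in Ck, and Cs8g02060 had 3, 3 and 20 in Gv and none in Ck.

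Summed over the run, the reads were 19, 19 and 179 in Gv against 0, 0 and 1 in Ck. The difference was there in Gv1 and Gv2 as well as in Gv3. On pooled reads, Cs8g02080 was at least 20.8-fold higher in Gv and Cs8g02060 at least 8.87-fold. The pooled ratio for Cs8g02070 was 101 (95% counting interval 17.8 to 4042). These values cover counting error only and not the spread among libraries. Gv3 held 53 of the 61 Gv reads on Cs8g02080. Without the filter, edgeR gave Cs8g02070 an adjusted p of 0.389 and Cs8g02090 one of 0.999, so none of the run was called there. That fit called 0 of all genes, so this does not set the run apart. Cs8g02070 passed the filter in 4 of the edgeR block fits with 1 library left out. Its adjusted p in these ran from 0.0344 to 0.115. The gene was chosen after its values were seen and passed on its Gv reads, so these values are a description and no support. The share of all genes called in these fits was not counted. Reads per 1000 PT4 reads were 14.3, 9.16 and 14.8 for Cs8g02070 in Gv1, Gv2 and Gv3, and 1.19, 2.04 and 4.95 for Cs8g02090. Over all listed genes, 245 (1.08%) had reads in all 3 Gv libraries and at most 1 read in Ck. Of these, 4 were in this run, out of 37 genes with a SAUR entry in KEGG. The run was picked by such values, so this count restates the choice and is no support. Reads were counted only where they aligned uniquely, and genes of 1 family with neighbouring identifiers may share reads, so the split among the 5 is uncertain. The next identifiers on either side, Cs8g02020 (120, 146 and 108 reads in Gv, 153, 158 and 117 in Ck) and Cs8g02100 (21, 19 and 38 in Gv, 11, 20 and 26 in Ck), are no SAUR genes and were read in both groups.

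**Figure D3:**
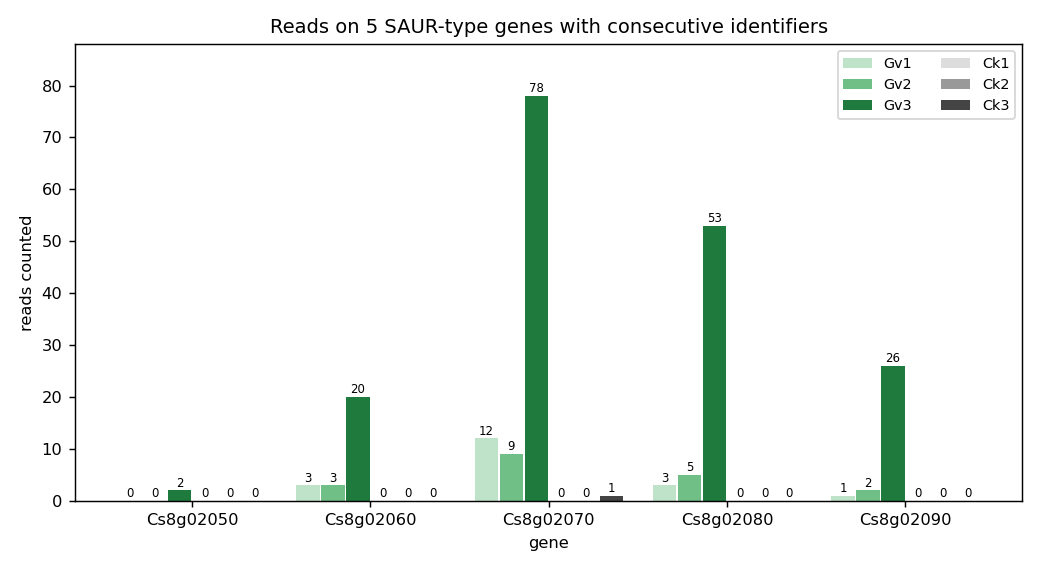
Reads counted (y axis) in each Gv and Ck library for 5 SAUR-type genes with consecutive identifiers. Bars are single libraries with the read count above. Gv3 holds 179 of the 217 Gv reads, and the 3 Ck libraries hold 1 read together.

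Among the conjugating enzymes, the GH3 genes had fitted changes in both directions, none of them called. Cs1g22140, a GH3 gene with its best hit in longan and the highest of the class at 73.4 RPKM, had 583, 983 and 1748 reads in Gv against 744, 881 and 268 in Ck. The groups overlapped, and the Gv to Ck ratio was 0.82 in number 1, 1.07 in number 2 and 6.97 in number 3. Its log2 change of 0.83 (SE 0.55, adjusted p = 1.00) was -0.06 without both libraries numbered 3. The GH3.5-like Cs4g11890 was the 1 GH3 gene whose groups did not overlap, with 110, 159 and 149 reads in Gv against 154, 180 and 184 in Ck. Such a fall without overlap was found in 3.99% of all genes tested. Its log2 change was -0.28 (SE 0.17, 95% interval -0.68 to 0.12). Cs8g04570 stood at -0.27, Cs8g04610 at -0.07 and Cs2g22260 at 0.34. Cs8g04570, Cs8g04580 and Cs8g04610 have close identifiers and 1 hit description, and may share reads. The other 3 GH3 genes had 2 to 24 reads.

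Of the 6 IAA-amino acid hydrolases, which release IAA from its conjugates, 1 was higher in every Gv library, against 5.17% of all genes tested. Cs6g14040 (IAA-amino acid hydrolase 4) had 188, 224 and 361 reads in Gv against 132, 189 and 141 in Ck. Its level was 23.2 ± 8.71 RPKM in Gv and 13.3 ± 2.33 RPKM in Ck (SD, n = 3), and its log2 change was 0.78 (SE 0.29, adjusted p = 0.980). Without Gv3 the change was 0.44. The remaining hydrolases had log2 changes between -0.29 and 0.00, with Cs1g18720 lowest at -0.29 (SE 0.16) and the ILR1-like 6 gene Cs3g19770 at 0.00 (95% interval -0.33 to 0.34). Cs3g19770 and Cs3g19760 have neighbouring identifiers and 1 hit description, and may share reads.

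The transport genes had a median log2 change of 0.02, but the direction differed between replicate numbers. The highest, the AUX1/LAX influx carrier Cs6g07990 at 37.6 RPKM, had 548, 560 and 908 reads in Gv against 824, 661 and 804 in Ck, a log2 change of -0.14 (SE 0.24). It was lower in Gv in numbers 1 and 2 (log2 ratios -0.52 and -0.30) and higher in number 3 (0.27). All 4 AUX1/LAX genes had this order of signs. Cs3g19250 had ratios of -1.01, -0.31 and 0.34, Cs8g02900 of -0.63, -0.09 and 1.20, and Cs7g31320 of -0.01, -0.30 and 0.41.

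The same order was seen in 3 of the 4 tested PIN genes of the set and in the symporter Cs2g13710. A further PIN gene, Cs4g04340, is known by its KEGG entry alone and was lower in Gv in each number (log2 ratios -0.72, -0.51 and -0.56), with a log2 change of -0.58 (SE 0.40, adjusted p = 1.00), or -0.59 with the block (95% interval -1.01 to -0.17, adjusted p = 0.359). Of the 11 transport genes tested, 8 (72.7%) were below Ck in numbers 1 and 2 and above in number 3, against 14.5% of all genes tested. The other 3 were above in all numbers, and none took the opposite order. This order was not confined to transport genes: it was found in 3 of the 5 Aux/IAA genes and in 18 of all 68 auxin genes (26.5%), while 5 of the 68 (7.35%) took the opposite order, against 13.9% of all genes. The pattern was noticed after the values were seen, and genes that share libraries do not count as separate replicates. Without both libraries numbered 3 the median log2 change of the class was -0.25, and 6 of the 11 had both Gv libraries below both Ck libraries (background 21.6%). In 4 of the 8 genes Ck3 was well below Ck1 and Ck2: CPM in library 3 over the mean of libraries 1 and 2 was 0.382 in Ck and 1.13 in Gv for Cs8g02900, 0.522 and 1.08 for Cs3g19250, 0.509 and 1.04 for Cs3g20820, and 0.50 and 0.776 for Cs6g17000. In Cs6g07990 it was Gv3 that stood apart, with 1.68 in Gv and 1.04 in Ck. Number 3 also holds the Gv library with the highest PT4 reads, and the part of either library in the change of sign was not tested. The labels do not say that libraries of the same number are pairs. Over all genes, the deviations of Gv1 correlated 0.429 with those of Ck2 and 0.357 with those of Ck1. A single library of each group under number 3 cannot show whether the change of sign repeats.

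**Figure D4:**
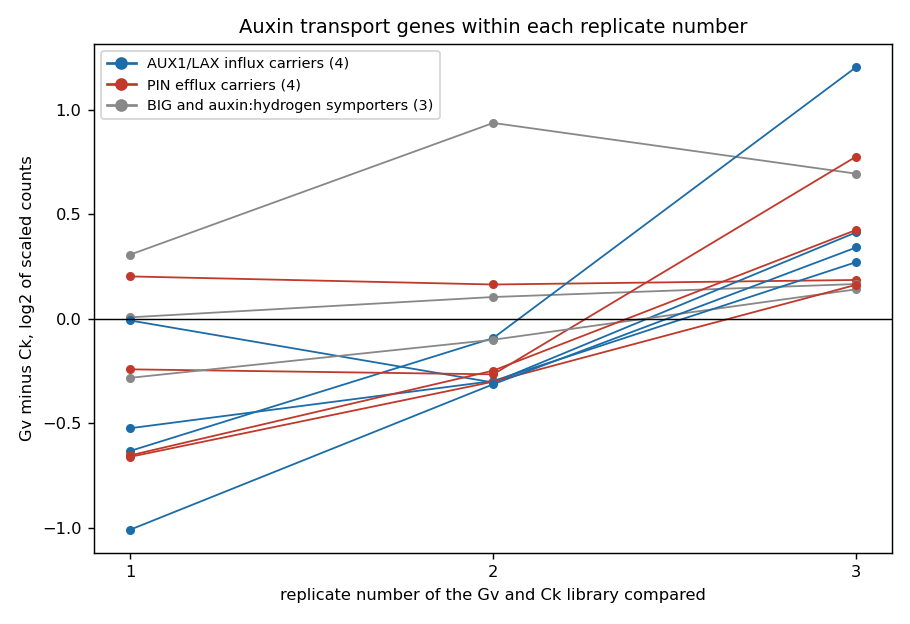
Log2 ratio of Gv to Ck scaled counts (y axis) within each replicate number (x axis) for the 11 tested transport genes, lines joining the values of 1 gene. The 4 AUX1/LAX and 3 of the 4 PIN genes lie below 0 in numbers 1 and 2 and above 0 in number 3.

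The PIN gene orange1.1t00089 (efflux carrier component 1c) was the exception. It had 66, 63 and 66 reads in Gv against 60, 54 and 62 in Ck, and its within-number ratios were 0.20, 0.16 and 0.19. Its groups did not overlap, yet its log2 change was only 0.18 (SE 0.16, adjusted p = 1.00). Cs6g19770, which encodes a protein like BIG, a very large protein needed for polar auxin transport in Arabidopsis, stood at 0.11 (SE 0.32). The symporter Cs7g25380 had 162, 291 and 53 reads in Gv against 137, 146 and 35 in Ck. It was higher in Gv in each number, with a log2 change of 0.67 (SE 0.70), or 0.64 with the block (95% interval 0.22 to 1.06, adjusted p = 0.310). Both groups were far lower in library 3 than in libraries 1 and 2 (ratios 0.242 in Gv and 0.237 in Ck). The 6 transport genes that were not tested, 5 of them PIN-type by KEGG, had 1 to 23 reads each.

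The 20 genes of the 5NG4 type belong to a family first described as auxin-induced in pine, related to nodulin-like and WAT1 membrane transporters. Cs3g25510 was the highest of them at 145 RPKM, with 1118, 1006 and 2366 reads in Gv against 1716, 1241 and 2167 in Ck and a log2 change of -0.14 (SE 0.39). Cs9g10730 had the lowest fitted change of all tested auxin genes. It had 9, 13 and 8 reads in Gv against 23, 22 and 20 in Ck, with every Gv library below every Ck library. Its level was 0.987 ± 0.225 RPKM in Gv and 2.08 ± 0.159 RPKM in Ck (SD, n = 3), and its log2 change was -1.08 (SE 0.29, 95% interval -1.76 to -0.39, adjusted p = 0.580). The value stayed between -1.27 and -0.95 when single libraries were left out. Among the untested members orange1.1t05502 likewise had 6, 7 and 6 reads in Gv against 10, 10 and 12 in Ck.

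The 5NG4 genes held the highest share of fitted changes over 0.5 in size among the classes, 5 of 11 tested (45.5%), at a median level of 2.60 RPKM. For 1 of the 11 the 95% interval lay within a 2-fold change. Cs6g16680 had 554, 577 and 591 reads in Gv but 614, 483 and 136 in Ck, so its log2 change of 0.50 (SE 0.50) came with an even Gv group and 1 low Ck library. Cs7g28730 went the opposite way in the 2 groups, with 26, 27 and 8 reads in Gv against 15, 13 and 40 in Ck. orange1.1t02816 was higher in Gv in each number (log2 ratios 0.81, 1.41 and 0.29), with a change of 0.77 (SE 0.36, adjusted p = 1.00).

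No receptor or repressor gene was called. No gene of the set was described as a receptor, and 5 genes described as transport inhibitor response (TIR1) proteins without naming auxin were taken as a separate list. Of these 3 were tested and none was called. Cs5g32500 was the highest of the 3 at 21.3 RPKM, with a log2 change of 0.08. By KEGG entry, 5 tested genes were of the TIR1 type, some of them also in this list, and none was called. Of these KEGG genes 4 had a fitted change below 0 and 1 above. The highest, Cs3g17560 at 44.3 RPKM, stood at -0.12 (SE 0.13). In 3 of the 5, Gv was lower in each number, against 15.3% of all genes. Among the Aux/IAA genes, Cs3g16750 (IAA19) was at 76.9 RPKM, with 1796, 2015 and 1502 reads in Gv against 2280, 2122 and 1375 in Ck and a change of -0.10 (SE 0.25). The IAA1-type Cs1g13960 was higher in Gv in each number (0.59, 0.29 and 0.93), at 0.53 (SE 0.43, adjusted p = 1.00). With the block its interval was 0.19 to 0.97 and its adjusted p 0.336. Cs9g08110, like IAA14, whose SOLITARY-ROOT mutation blocks lateral roots in Arabidopsis, was at -0.27 (SE 0.57). The IAA13-type Cs5g29060 was the steadiest, at -0.06 (95% interval -0.32 to 0.21).

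Genes named auxin-induced by their text but of other families had fitted changes in both directions. The PCNT115 genes, named after an auxin-induced tobacco transcript, resemble aldo/keto reductases. Cs3g10600 had 153, 155 and 346 reads in Gv against 115, 110 and 128 in Ck, a log2 change of 0.93 (SE 0.35, adjusted p = 0.994), which became 0.41 without Gv3. Cs8g10170 had 81, 90 and 84 reads in Gv against 128, 135 and 109 in Ck, a change of -0.51 (SE 0.15, 95% interval -0.88 to -0.14, adjusted p = 0.699). Their relative Cs3g10630 was the highest of these genes at 126 RPKM and stood at 0.15 (SE 0.25). The groups did not overlap for Cs3g10600 and Cs8g10170 (background 5.17% above and 3.99% below), and neither was called. Cs3g13890 resembles AXR4, needed in Arabidopsis to place AUX1 in the plasma membrane, and stood at -0.06 (95% interval -0.47 to 0.35).

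The most abundant auxin gene was Cs2g05690, the auxin-repressed/dormancy-associated gene, at 439 RPKM. It alone took 9.95 to 20.0% of the reads on auxin genes. It had 5336, 4980 and 3102 reads in Gv against 4817, 4537 and 2448 in Ck, higher in Gv within each number, with a log2 change of 0.21 (SE 0.35). The third library was the lowest of its group in both groups, with CPM at 0.614 of the mean of the other two in Gv and at 0.502 in Ck.

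For some auxin genes the third library stood apart from the first and second in both groups. In 7 of the 68 (10.3%, against 6.75% of all genes) the third library differed more than 2-fold from the mean of the first and second, in the same direction in both groups, high in 2 genes and low in 5. The high genes were the ARG7-type SAUR gene Cs4g12720 (ratios 2.88 in Gv and 2.32 in Ck) and the PCNT115-type Cs8g10180 (2.29 and 2.67). Cs2g22260 (GH3) and Cs7g25380 were among the low genes. In 2 genes it differed more than 2-fold in opposite directions, Cs1g22140 (2.31 in Gv and 0.316 in Ck) and Cs7g28730 (0.309 and 2.74). The libraries give no date or batch, so the source of the third library's difference was not tested.

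**Figure D5:**
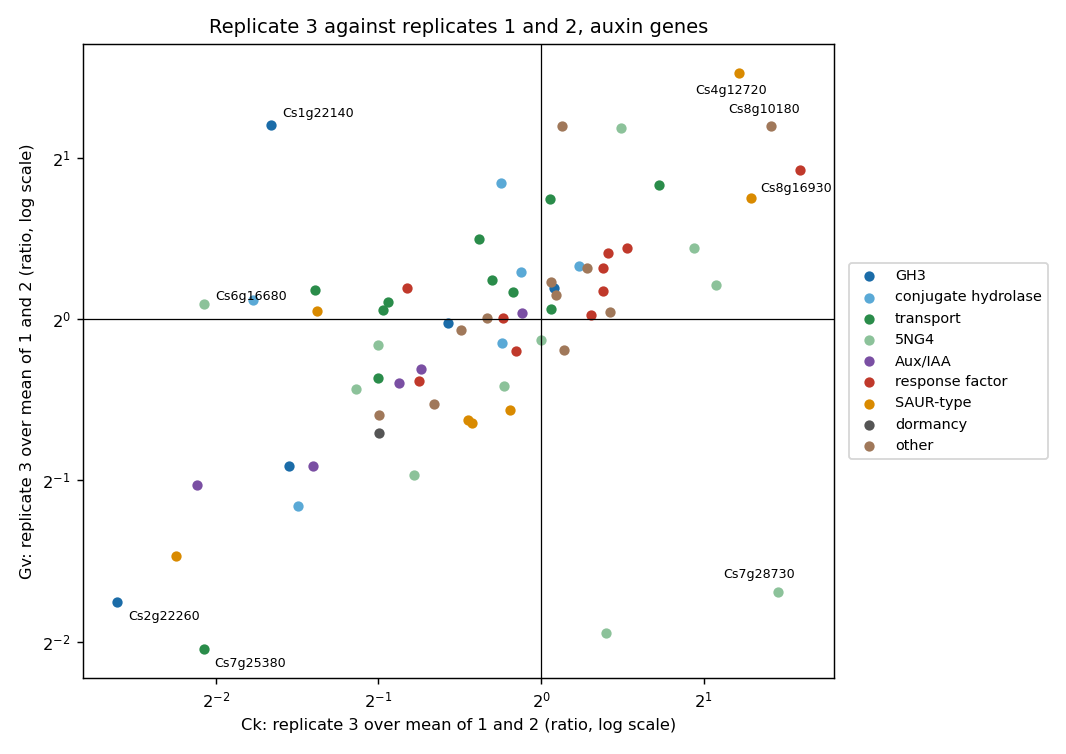
Replicate 3 over the mean of replicates 1 and 2 in Ck (x axis) and Gv (y axis), both as ratios on log2 scales, for 67 tested auxin genes with reads in library 3 of both groups. Most genes lie near the rising diagonal, while Cs1g22140 and Cs7g28730 lie in the opposite corners.

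Genes with an auxin entry in KEGG whose hit text held none of the terms of the selection rule numbered 52, of which 32 were tested. They include the untested orange1.1t01781, described as an aux/IAA protein, which those terms did not cover. None was called by edgeR with or without the block, or by DESeq2. Of the 32, 5 had every Gv library above every Ck library (background 5.17%) and none had every Gv library below (background 3.99%). The largest such difference was in the SAUR-type Cs5g33080, with 15, 20 and 10 reads in Gv against 1, 9 and 0 in Ck (log2 change 2.15, 95% interval -0.03 to 4.33, adjusted p = 1.00). Its neighbour by identifier, Cs5g33090, had 31, 26 and 17 reads in Gv against 3, 17 and 0 in Ck. Cs1g16800, also SAUR-type, had 28, 41 and 53 reads in Gv against 21, 17 and 18 in Ck (log2 change 1.15, adjusted p = 0.563). The untested Cs8g02060, Cs8g02070 and Cs8g02080 are part of this list and not counted among the 5.

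Genes upstream and downstream of the set gave no call either. Over all genes, edgeR called 0.0% without the block and 0.995% with it, and DESeq2 called 1.19%. Of 3 genes picked by biosynthesis terms in their hit text 1 was tested, the tryptophan aminotransferase-related Cs3g21870, with 17, 41 and 26 reads in Gv against 32, 57 and 31 in Ck. The other 2 were described as probable flavin-containing monooxygenase 1 and had 2 reads each. Whether any of the 3 acts in auxin synthesis was not tested. Of 4 TOPLESS corepressor genes, which Aux/IAA proteins recruit to silence targets, Cs7g05860 was higher in all Gv libraries, by 0.14. Of 14 LBD genes, a family with ARF targets in Arabidopsis lateral roots, 7 were tested. Cs7g26710 was higher in all Gv libraries (146, 156 and 202 against 143, 87 and 123 reads, log2 change 0.55) and Cs2g09320 lower (11, 20 and 14 against 21, 27 and 23 reads, -0.63), with an adjusted p of 1.00 for both. Over all genes tested, every Gv library lay above every Ck library for 5.17% and below for 3.99%.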

How the data were processed

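Per the labels and the study's methods, poly(A) RNA was sequenced on an Illumina HiSeq 2000. The authors used SOAPaligner/SOAP2 and the sweet orange (Citrus sinensis) reference genome, and their deposited tables give uniquely aligned read counts and RPKM per gene. RPKM followed exactly from the count, the listed length and the total, whether introns are in that length is not given in the sources used here, nor is strand. A gene not listed in a library was set to 0. Libraries hold 4.34 to 4.71 M reads, so low genes are imprecise. Fungal reads were not analysed here.

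Counts were filtered by filterByExpr, scaled by TMM and tested with the two-sided quasi-likelihood test of edgeR 4.0.16 (limma 3.58.1, R 4.3.3), Benjamini-Hochberg adjusted over 16281 genes; calls needed an adjusted p under 0.05 and a log2 change of at least 1. SE is the change over the root of F. DESeq2 1.42.0 was an alternative, and NOISeq, which the study used, was not run. The code was checked on simulated counts. Counting intervals and ratios used SciPy 1.17.1 and Python 3.11.15.

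Same-numbered libraries deviated together (correlations 0.357, 0.481 and 0.613, each above 0.1), though Gv1 with Ck2 gave 0.429. The pairing comes from these data, not from the labels. Alternatives were a replicate block, library totals, unfiltered genes, genes averaging 10 or more reads, calls regardless of fold, KEGG membership, RPKM and left-out libraries. Named genes were those called by any tool, the largest non-overlapping changes per class, the highest RPKM per class, and the largest rise and fall; others were picked after their values were seen to describe their class. The members and lists were chosen with earlier results of these data known. The 3 replicates of a group were separate pools of plants per the study's methods. Sequences were not analysed here.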

Additional observations from a re-analysis of the deposited data

How the results depend on the processing

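The 68 tested auxin genes kept 0 calls higher in Gv except with DESeq2 (1), and 0 to 1 when libraries were left out, with or without the replicate block; the called gene is Cs5g32400. No auxin gene was called lower under any alternative run. All genes called higher rose from 0 to 187 with DESeq2, 156 with the replicate block and 0 to 166 when libraries were left out (68 without Gv3, 166 without replicate 3), and all genes called lower to 6, 6 and 0 to 39 (1 without Gv3, 39 without replicate 3). With all 6 libraries the block changed no call of an auxin gene. With Gv3 or Ck3 left out, 1 auxin gene was called higher with the block and 0 without it. The block turned the log2 change of Cs7g03030 to -0.012. Of the 68 auxin genes, those with all Gv above Ck numbered 5 to 14 with libraries left out (14 without replicate 3, where 21.8% of all genes did; 7.68 to 13.6% of all genes with 1 library left out), and 7 of the genes with a KEGG auxin entry; those below numbered 3 to 21 (21 without replicate 3, background 21.6%; 14 without Ck3, background 12.2%; 6.32 to 7.28% of all genes without Gv1, Gv2, Ck1 or Ck2) and 1 by KEGG membership. Fewer libraries separate more easily by construction.

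Class medians of the log2 change with libraries left out ran from -0.35 to 0.60 for GH3, -0.20 to 0.27 for hydrolases, -0.25 to 0.0022 for transport, -0.11 to 0.10 for 5NG4 (-0.025 without the filter), -0.021 to 0.23 for response factors and -0.067 to 0.054 for the others. The median of all auxin genes stayed between -0.06 and 0.03. The cause of these shifts was not tested. Of the 15 named genes, 8 kept their direction in every alternative, and 7 did not when libraries were left out: Cs1g22140 (-0.063 to 1.16), Cs2g05690 (-0.046 to 0.41), Cs3g10630 (-0.035 to 0.30), Cs3g16750 (-0.30 to 0.044), Cs3g25510 (-0.65 to 0.10), Cs7g03030 (-0.089 to 0.17) and Cs7g19770 (-0.034 to 0.18). Cs5g32400 ran from 3.52 to 6.53, and from 3.52 to 6.84 with the block. Where 1 library was left in a number or 2 in a group, its spread is taken from all libraries. Depth limits the 31 untested auxin genes, which had at most 56 reads.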
